A study of Homo sapiens with 18 samples.

Results

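The mRNA of 10 secreted proteins of the extracellular matrix, fibronectin and proteins that sit in the matrix or bind to it, was followed in lung cancer cells with and without knockdown of the tyrosine kinase SYK. The genes were FN1, FBN1, THBS1, THBS2, TNC, SPP1, TGFBI, SPARC, FSTL1 and OLFML3. They were chosen by symbol, with earlier results of these data known. The 10 symbols were matched to 10 of the 58302 genes in the deposited tables. RNA-seq libraries were made from EBC-1 (MET amplification), PC-9 (EGFR exon 19 deletion) and HCC827 (EGFR exon 19 deletion), each an established human lung cancer cell line. The study lists EBC-1 as squamous cell lung cancer, and PC-9 and HCC827 as lung adenocarcinoma. Driver gene and histology therefore differ together between EBC-1 and the other lines. In each line, cells that stably carried an shRNA against SYK (shSYK) were compared with negative control cells of the same line (nc). The 6 groups held 3 libraries each, 18 in all. A single lentiviral shRNA was used for the knockdown, so no other shRNA bears on these values, and cell age and passage were not given in the sources used here. The labels do not say whether the 3 libraries of a group came from separate cultures, so p-values measure the spread between these libraries, which may be technical.

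Fibronectin is laid down by cells as fibrils that integrins bind, and fibrillin builds the microfibrils that hold latent TGF-β in the matrix. Thrombospondins, tenascin-C, osteopontin (SPP1), SPARC and the TGF-β-induced protein TGFBI are called matricellular proteins, since they modulate adhesion and signalling more than they carry load. FN1, SPARC and several others are widely used as mesenchymal markers in epithelial tumours, in which fibroblasts of the stroma are usually their main source. The cultures here were cell lines without stroma.

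The promoters of OLFML3, SPP1, TNC and THBS1 are shown first, the 4 members with the largest change in any line among those that passed the expression filter, on the log2(FPKM + 1) scale. They were taken from RefSeq (GRCh38.p14), in which the 10 genes were all matched, and are written 5′ to 3′ on the strand of the gene. A window of 250 bases before the RefSeq start was searched on both strands for TGANTCA (AP-1), GGGCGG (Sp1), GGAATG (TEAD) and TATAAA. Sp1 and the AP-1 protein FRA1 were among the transcription factors examined in the study. Only the bases of the window that lie outside the gene model of the deposited tables are printed, with matches in capitals. OLFML3 is shown at chr1:113979224-113979390 (plus strand), SPP1 at chr4:87975464-87975649 (plus strand), TNC at chr9:115118258-115118407 (minus strand) and THBS1 at chr15:39580829-39581078 (plus strand).
OLFML3: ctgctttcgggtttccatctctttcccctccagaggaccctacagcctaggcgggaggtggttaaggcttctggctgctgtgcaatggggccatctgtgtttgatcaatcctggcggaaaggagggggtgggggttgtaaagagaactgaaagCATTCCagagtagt
SPP1: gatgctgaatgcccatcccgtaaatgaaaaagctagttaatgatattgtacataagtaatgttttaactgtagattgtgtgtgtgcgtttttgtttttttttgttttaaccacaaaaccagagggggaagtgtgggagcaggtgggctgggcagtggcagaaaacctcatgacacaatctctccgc
TNC: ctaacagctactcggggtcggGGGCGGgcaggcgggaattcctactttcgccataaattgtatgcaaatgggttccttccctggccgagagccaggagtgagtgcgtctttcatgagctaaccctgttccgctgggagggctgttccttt
THBS1: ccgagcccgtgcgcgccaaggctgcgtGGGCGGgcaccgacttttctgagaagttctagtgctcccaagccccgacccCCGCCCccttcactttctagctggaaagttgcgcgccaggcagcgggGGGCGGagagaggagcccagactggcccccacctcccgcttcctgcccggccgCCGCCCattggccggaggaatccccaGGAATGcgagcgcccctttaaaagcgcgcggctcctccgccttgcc

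In the printed bases, OLFML3 held a TEAD match on the opposite strand, TNC held 1 Sp1 match, and THBS1 held 4 Sp1 matches and 1 TEAD match. SPP1 held none of the 4 motifs in its whole window, whose GC content was 44.8%, against a median of 58.0% over the 35116 promoters of the table. The Sp1 letters were found in 6 of the 10 windows, FN1 (6 matches, some of them overlapping), THBS1 (4), TGFBI (3), TNC (1), FSTL1 (1) and OLFML3 (1), and in 42.6% of all promoters. The TEAD letters were found in 5 of the 10 (THBS1, THBS2, SPARC, FBN1 and OLFML3) and in 11.9% of all promoters. TATAAA was found only in THBS2 among the 10 and in 10.7% of all promoters. The AP-1 letters were found in 0 of the 10 windows and in 6.57% of all promoters. These matches describe the letters of a short window, and no binding was measured. The windows of SPARC, FBN1 and FSTL1 lie wholly inside the gene model of the deposited tables, as do 198 of the 250 bases of THBS2.

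Reads per gene were recovered exactly from the FPKM (fragments scaled by the length of the gene model and by library size), and each library held between 7920099 and 15729103 reads on genes. SYK itself, the target of the shRNA, fell in each line. The shSYK cells of EBC-1 kept 52.3% of the nc level (7.43 ± 0.189 against 14.2 ± 1.07 FPKM, SD, n = 3), those of PC-9 kept 32.1% (2.09 ± 0.389 against 6.51 ± 0.698) and those of HCC827 kept 32.9% (2.99 ± 0.472 against 9.08 ± 0.649). The 8 epithelial markers examined (EPCAM, CDH1, KRT7, KRT8, KRT18, KRT19, CLDN7 and ELF3) were at a mean of 1 FPKM or more in each line. Of 9 fibroblast markers, COL1A1 alone reached that level in each line, and DCN and LUM had 0 reads in every library of EBC-1 and PC-9. Tests were made with limma on log2(FPKM + 1) over genes whose FPKM averaged 1 or more across the 6 libraries of a line, and a gene was called changed at a Benjamini-Hochberg adjusted p under 0.05 over all genes tested. A change is given as shSYK minus nc on this log2 scale, with its standard error (SE). A single-gene exact permutation test of 3 libraries against 3 cannot go below p = 0.1 (two-sided), which was the value for every member whose groups did not overlap.

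The negative control cells of the 3 lines expressed different members of the group. FPKM is scaled to the length of the gene model (2321 bases for SPP1 to 17315 for FN1), not of the transcripts expressed. Shares of a summed FPKM are therefore approximate between members. The order of the lines is a description with no test, since each line has its own table. In EBC-1 nc cells, TGFBI made up 49.9% of the summed FPKM of the 10 genes, THBS1 27.0% and TNC 19.3%. In PC-9 nc cells, SPP1 made up 69.3% and TGFBI 14.4%. In HCC827 nc cells, TGFBI made up 57.2% and TNC 34.6%. The 10 genes summed to 160.9 ± 7.98 FPKM (SD, n = 3) in EBC-1 nc cells and to 156.9 ± 5.42 in shSYK cells, with overlap. In EBC-1 shSYK cells, TGFBI made up 39.1% of it, TNC 38.5% and THBS1 16.1%. The sum was 145.0 ± 6.11 and 197.7 ± 4.86 in nc and shSYK cells of PC-9, and 310.4 ± 17.0 and 232.5 ± 13.1 in those of HCC827. The 3 shSYK sums lay above the 3 nc sums in PC-9 and below them in HCC827, and overlapped them in EBC-1. In these bulk libraries, fewer cells that express a gene and less of its mRNA per cell cannot be told apart.

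**Figure D1:**
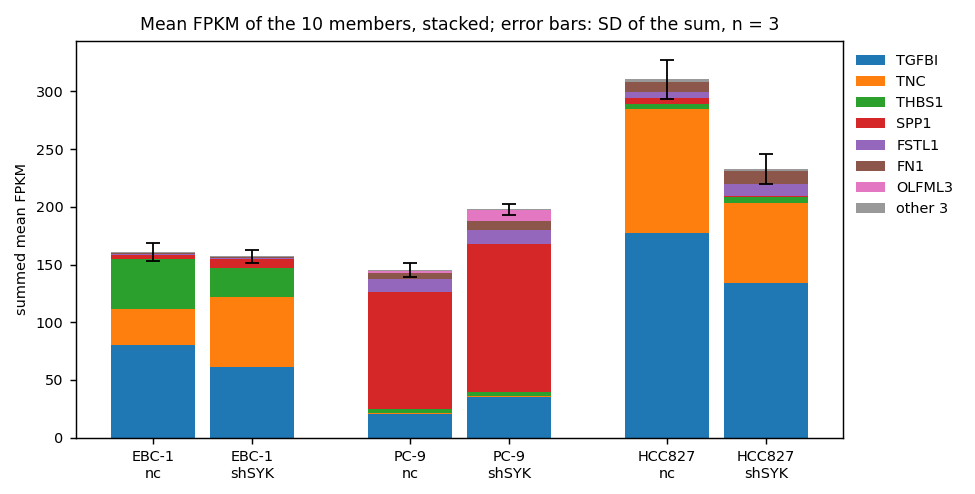
Stacked bars give the mean FPKM of each of the 10 genes (y axis, summed FPKM) in nc and shSYK cells of EBC-1, PC-9 and HCC827, with THBS2, SPARC and FBN1 together as the other 3. Error bars are the SD of the sum over 3 libraries; SPP1 fills most of the PC-9 bars, TGFBI and TNC fill most of the HCC827 bars, and the TNC share of EBC-1 goes from 19.3% to 38.5%.

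FN1, the gene of fibronectin (ENSG00000115414, hg38 chromosome 2, 215360440 to 215436172, minus strand), was highest in HCC827, lower in PC-9 and lowest in EBC-1, with no overlap between lines. In HCC827, it read 8.79, 9.26 and 7.63 FPKM in the nc libraries and 10.6, 12.6 and 10.8 in the shSYK libraries. The groups did not overlap, and FN1 rose by 0.37 (SE 0.089, limma adjusted p = 0.0159). Without shSYK replicate 2, the highest of the 3, the adjusted p was 0.0512 (limma), and without the expression filter it was 0.052. In PC-9, FN1 read 5.02, 5.62 and 4.60 FPKM in nc and 7.24, 7.32 and 7.56 in shSYK cells. These groups did not overlap either, with a larger change (0.46, SE 0.097) that missed the threshold (limma adjusted p = 0.0615) and passed it in 5 alternatives, among them quantile normalization (limma adjusted p = 0.0391) and the fit over all 18 libraries (0.00141). In EBC-1, the values were 1.06, 1.15 and 1.06 FPKM in nc and 1.21, 1.26 and 1.18 in shSYK cells. These groups did not overlap, as was so for 56.9% of all genes tested in EBC-1. The change in EBC-1 was 0.086 (SE 0.099, limma adjusted p = 0.508), and its sign turned to -0.063 when the trend of the values on gene length was removed.

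FBN1, the gene of the microfibril protein fibrillin-1 (ENSG00000166147, chromosome 15, 48408306 to 48645849, minus strand), was below 1 FPKM in each of the 18 libraries and is given in recovered reads. In HCC827, the nc libraries held 23, 52 and 25 reads and the shSYK libraries 149, 127 and 111. The 3 shSYK libraries lay above the 3 nc libraries there, and the mean FPKM of shSYK cells, 0.768 ± 0.149 (SD, n = 3), was 3.73 times that of nc cells, 0.206 ± 0.066. It was not among the genes tested, for lack of a mean FPKM of 1. Without that filter its adjusted p was 0.0182 (limma, 12.7% of 27557 genes called), and limma-voom on the recovered reads of genes with at least 10 reads on average, chosen after seeing the data, gave a change of 1.97 (SE 0.25, adjusted p = 6.46e-06, 40.9% of genes called). In EBC-1, FBN1 had 39, 40 and 26 reads in nc and 69, 28 and 46 in shSYK cells, and in PC-9 10, 25 and 16 against 28, 28 and 12. Both of these pairs of groups overlapped.

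THBS1, the gene of thrombospondin-1 (ENSG00000137801, chromosome 15, 39581079 to 39599466, plus strand), an inhibitor of angiogenesis that also activates latent TGF-β, was 10.6 times as high in EBC-1 nc cells as in HCC827 and 10.7 times as high as in PC-9, in which its ranges overlapped. In EBC-1, the nc libraries read 38.1, 54.0 and 38.9 FPKM and the shSYK libraries 25.8, 23.9 and 25.9. THBS1 fell by 0.75 on the log2 scale (SE 0.13, limma adjusted p = 0.00366). The nc value of replicate 2 stood above the others, and without it the change was -0.59 and still called (limma adjusted p = 0.0194). In PC-9, the values were 4.09, 3.89 and 4.23 FPKM in nc and 2.95, 2.97 and 3.41 in shSYK cells, lower in each shSYK library but not called (-0.31, SE 0.095, limma adjusted p = 0.176). In HCC827, they were 4.89, 4.52 and 2.94 in nc and 6.59, 5.24 and 4.05 in shSYK cells, with overlap (0.30, SE 0.19, limma adjusted p = 0.247). With limma-voom on recovered reads the change in HCC827 was 0.46 and passed the threshold (adjusted p = 0.0369).

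THBS2, the gene of thrombospondin-2 (ENSG00000186340, chromosome 6, 169215780 to 169254044, minus strand), was detected in HCC827 and hardly or not in the other lines. In HCC827, it had 57, 90 and 67 reads in nc (1.23, 1.20 and 0.972 FPKM) and 31, 48 and 40 reads in shSYK cells (0.485, 0.706 and 0.573 FPKM). The shSYK libraries were all below the nc libraries, at 51.8% of the mean FPKM. The mean over the 6 libraries was under the filter. Without the filter the adjusted p was 0.0522 (limma), and limma-voom on genes with at least 10 reads on average gave -0.86 (SE 0.21, adjusted p = 0.0037). In EBC-1, no library held more than 2 reads, under the floor of 3, and in PC-9 each of the 6 libraries held 0. A count of 0 allows up to 3 reads per library, and these limits cover counting error only. THBS1 and THBS2 are related genes, and how the authors treated reads that fit both is not given in the sources used here.

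TNC, the gene of tenascin-C (ENSG00000041982, chromosome 9, 115019578 to 115118257, minus strand), an adhesion-modulating glycoprotein of wounds and tumour stroma, moved in opposite directions in EBC-1 and HCC827. In EBC-1, it read 32.8, 29.8 and 30.6 FPKM in nc and 62.4, 61.3 and 57.7 in shSYK cells. It rose by 0.94 (SE 0.067, limma adjusted p = 0.000119), and the mean was 1.95 times as high. In HCC827, it read 111, 105 and 106 FPKM in nc and 61.0, 77.8 and 69.4 in shSYK cells. It fell by 0.63 on the log2 scale (SE 0.087, limma adjusted p = 0.00183), and neither pair of groups overlapped. EBC-1 and HCC827 differed 3.45 times in nc cells and overlapped in shSYK cells, with means of 60.5 and 69.4 FPKM, and their order turned when the libraries were rescaled to an equal sum. In PC-9, TNC was under the filter, with 28, 47 and 23 reads in nc and 73, 61 and 67 in shSYK cells (mean FPKM 0.333 ± 0.097 and 0.597 ± 0.092, SD, n = 3). The groups did not overlap in PC-9, but the change was not called without the filter (limma adjusted p = 0.448) or by limma-voom on genes with at least 10 reads (0.83, SE 0.27, adjusted p = 0.165).

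SPP1, the gene of osteopontin (ENSG00000118785, chromosome 4, 87975650 to 87983426, plus strand), a secreted ligand of integrins and of CD44, had the widest spread of changes. In EBC-1, it read 3.56, 3.27 and 2.48 FPKM in nc and 6.28, 7.26 and 8.27 in shSYK cells. It rose by 1.01 (SE 0.13, limma adjusted p = 0.00106), with 68 to 114 reads per nc library and 197 to 261 per shSYK library. In HCC827, it read 6.08, 5.83 and 3.96 FPKM in nc and 0.906, 0.810 and 0.671 in shSYK cells. It fell by 1.79 on the log2 scale (SE 0.14, limma adjusted p = 0.000251), and the mean FPKM in shSYK cells was 15.0% of nc. Each shSYK library of HCC827 held 17 to 21 reads on SPP1, so that the gene passed the filter there through its nc level. In PC-9, where SPP1 was highest, it read 92.1, 105 and 105 FPKM in nc and 137, 128 and 121 in shSYK cells. The groups did not overlap in PC-9, and the change of 0.35 (SE 0.11) missed the threshold (limma adjusted p = 0.191). SPP1 was the member in whose promoter window the fewest CpG pairs lay (3, against 6 to 32 in the others), beside its lack of the 4 motifs.

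TGFBI, named for its induction by TGF-β and encoding a protein that binds collagen and integrins (ENSG00000120708, chromosome 5, 136028895 to 136063818, plus strand), had the highest mean FPKM of the members in EBC-1 and HCC827. In EBC-1, it read 80.8, 80.1 and 79.7 FPKM in nc and 63.7, 64.3 and 56.3 in shSYK cells, and fell by 0.38 on the log2 scale (SE 0.071, limma adjusted p = 0.0046). In HCC827, it read 189, 176 and 167 FPKM in nc and 142, 137 and 123 in shSYK cells, and fell by 0.40 on that scale (SE 0.074, limma adjusted p = 0.00543). The size of the fall in these lines differed by 0.021 (SE 0.13, limma adjusted p = 0.934), with a sign that turned in 5 of 28 alternatives. In PC-9, by contrast, it read 23.4, 18.2 and 21.0 FPKM in nc and 33.3, 35.8 and 37.8 in shSYK cells. It rose there by 0.75 (SE 0.12, limma adjusted p = 0.0319), and the mean was 1.71 times as high. The call in PC-9 was lost without the filter (limma adjusted p = 0.0796), and without nc replicate 3 (0.179), shSYK replicate 1 (0.144), shSYK replicate 2 (0.169) or shSYK replicate 3 (0.17), each time with a change between 0.71 and 0.80.

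**Figure D2:**
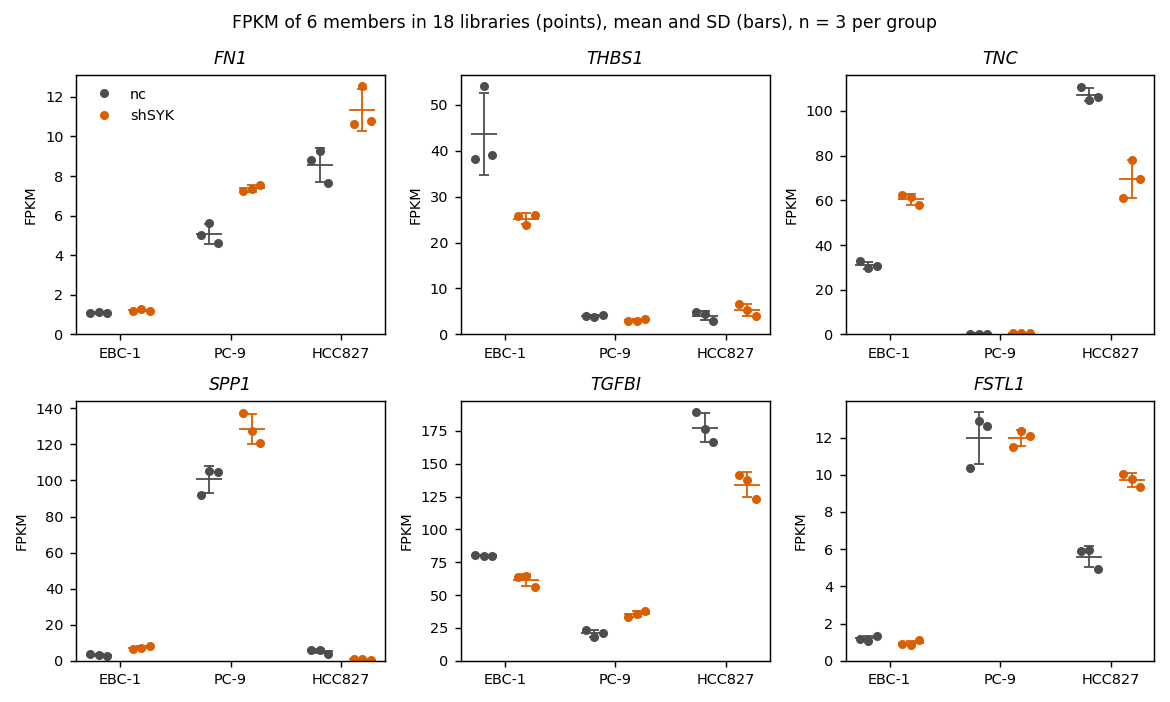
FPKM (y axis) of FN1, THBS1, TNC, SPP1, TGFBI and FSTL1 in each nc (grey) and shSYK (orange) library of the 3 lines; points are libraries and bars the mean and SD of 3. TNC goes up in EBC-1 (31.1 to 60.5 FPKM on average) and down in HCC827 (107 to 69.4), SPP1 is at 8.27 FPKM or less outside PC-9, and TGFBI goes up in PC-9 only.

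SPARC, a collagen-binding matricellular protein (ENSG00000113140, chromosome 5, 151661096 to 151687165, minus strand), was low in each line. In EBC-1, it had 26, 27 and 27 reads in nc and 17, 10 and 7 in shSYK cells. The 3 shSYK libraries lay below the 3 nc libraries, and the mean FPKM was 38.2% of nc. SPARC was under the filter, without which its adjusted p was 0.0341 (limma, 14.7% of 30478 genes called), and limma-voom on genes with at least 10 reads on average gave -1.29 (SE 0.33, adjusted p = 0.00571). In HCC827, the reads were 35, 26 and 21 in nc and 14, 23 and 18 in shSYK cells, with overlap, and the nc mean rested on replicate 1 (1.0 FPKM against 0.458 and 0.403). In PC-9, each library held 6 or 7 reads.

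FSTL1, a secreted glycoprotein related to SPARC and follistatin that binds TGF-β family ligands (ENSG00000163430, chromosome 3, 120392293 to 120451253, minus strand), changed in HCC827. There it read 5.91, 5.93 and 4.93 FPKM in nc and 10.1, 9.78 and 9.34 in shSYK cells, and rose by 0.71 (SE 0.077, limma adjusted p = 0.000701). Its mean was 1.74 times as high, with no overlap between groups. In PC-9, where it was highest, FSTL1 read 10.4, 12.9 and 12.6 FPKM in nc and 11.5, 12.3 and 12.1 in shSYK cells, a change of 0.0058 (SE 0.11, limma adjusted p = 0.99) whose sign depended on the scaling. In EBC-1, it read 1.16, 1.09 and 1.35 FPKM in nc and 0.877, 0.872 and 1.10 in shSYK cells, with overlap (-0.18, SE 0.11, limma adjusted p = 0.239). A pseudogene on the other strand overlaps the FSTL1 model and held at most 15 reads per library, against at least 89 on FSTL1.

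OLFML3, a secreted olfactomedin-like protein (ENSG00000116774, chromosome 1, 113979391 to 114035572, plus strand), was tested in PC-9 alone among these lines, with at most 5 reads in any library of the others. In PC-9, it read 2.36, 1.68 and 1.43 FPKM in nc (55, 55 and 42 reads) and 9.86, 9.85 and 10.8 in shSYK cells (349, 351 and 310 reads). It rose by 2.0 (SE 0.13, limma adjusted p = 0.00187), the largest change of any tested member in any line, and its mean was 5.59 times as high. Its promoter window held 1 Sp1 and 1 TEAD match. The call held in each of the 17 alternatives for that result, with adjusted p between 7.12e-09 and 0.026 (limma). In EBC-1, no library held a read on OLFML3. In HCC827, the reads were 0, 5 and 5 in nc and 3, 0 and 1 in shSYK cells, with overlap.

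**Figure D3:**
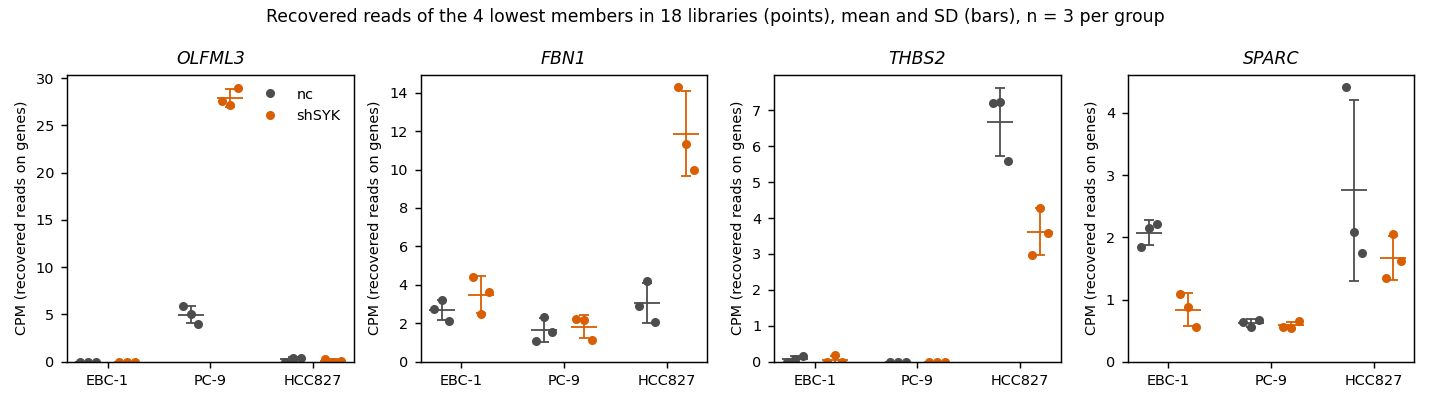
Recovered reads relative to the reads on genes of the library (y axis, CPM) of OLFML3, FBN1, THBS2 and SPARC in each nc (grey) and shSYK (orange) library; points are libraries and bars the mean and SD of 3. OLFML3 separates the groups in PC-9, FBN1 and THBS2 in HCC827 and SPARC in EBC-1, and the other groups overlap or are at 0.

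In EBC-1, 6 members were tested, of which 2 rose (TNC and SPP1) and 2 fell (THBS1 and TGFBI), where 23.1% of the 12430 genes tested rose and 21.6% fell. The groups did not overlap for 5 of the 6, against 56.9% of all genes tested. In PC-9, 2 of 6 rose (TGFBI and OLFML3) and 0 fell, where 0.678% of 12089 genes rose and 1.41% fell. By limma-voom on recovered reads, 0 members fell in PC-9 as well. At an unadjusted p under 0.05 (limma), 4 of the 6 members passed in EBC-1, against 6603 of the 12430 genes, 5 of 6 in PC-9, against 1881 of the 12089, and 5 of 6 in HCC827, against 5761 of the 11999. With 1 library left out, the members called in PC-9 numbered 1 to 3, and all calls there numbered between 7 (without shSYK replicate 1) and 621 (without nc replicate 1). The groups did not overlap for 5 of the 6 in PC-9, against 23.7% of all genes tested. In HCC827, 2 of 6 rose (FN1 and FSTL1) and 3 fell (TNC, SPP1 and TGFBI), where 17.2% of 11999 genes rose and 20.7% fell, and the groups did not overlap for 5 of the 6, against 52.3% of all genes tested. The median changes of the tested members in EBC-1, PC-9 and HCC827 were -0.045, 0.41 and -0.051, against 0.0090, 0.0088 and -0.0053 over all genes tested. Rescaling the libraries to an equal sum moved the median of all genes in EBC-1 from 0.0090 to 0.12 and the split of calls over all genes from 2876 upward and 2686 downward to 4019 and 1901, and in HCC827 from 2066 and 2488 to 2482 and 1905. In PC-9, rescaling moved the split from 82 and 171 to 123 and 368, and the fit of all 18 libraries gave 660 and 851. The counts of members called upward and downward after rescaling were 2 and 2 in EBC-1, 2 and 0 in PC-9, and 2 and 3 in HCC827. The tested members are not the 10, since 4 in each line were under the filter. The members and the lists below were chosen with earlier results of these data known. Whether that choice shaped their counts against the shares of all genes was not tested.

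**Figure D4:**
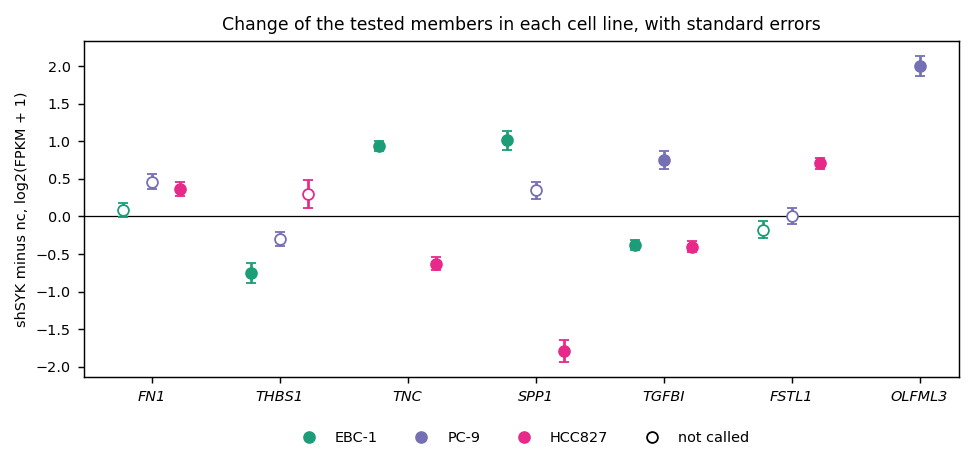
Change of each tested member (shSYK minus nc on the log2(FPKM + 1) scale, y axis) in EBC-1, PC-9 and HCC827, with its standard error; filled points passed an adjusted p under 0.05 and open points did not. TNC and SPP1 lie above 0 in EBC-1 and below 0 in HCC827, TGFBI lies above 0 in PC-9 only, and OLFML3, tested in PC-9 only, lies at 2.0.

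The changes of the members were compared between lines as differences of the shSYK minus nc changes, in a limma fit of all 18 libraries over 14636 genes. All groups share 1 estimate of the spread per gene in this fit. In PC-9, a fit of all 18 libraries called 1511 genes, against 253 from its own 6 libraries. Differences that involve PC-9 may therefore look more certain than its own spread allows. Between EBC-1 and HCC827, the change differed for 4 of 7 members, against 20.6% of all genes, and the 4 (THBS1, TNC, SPP1 and FSTL1) had opposite signs in these lines. TNC and SPP1 were called in both, while THBS1 in HCC827 and FSTL1 in EBC-1 were not called and their groups overlapped. The 7 include OLFML3, which entered the fit through PC-9, with 0 reads in EBC-1 and at most 5 in any HCC827 library. SPP1 differed most, by 2.80 (SE 0.19, limma adjusted p = 1.32e-07), and TNC by 1.57 (SE 0.12, limma adjusted p = 3.9e-07). Between EBC-1 and PC-9, it differed for 5 of 7, against 18.3% of all genes. This count includes OLFML3, with 0 reads in EBC-1, and TNC, under the filter in PC-9. The count was 3 with a pseudocount of 0.1, 2 by limma-voom, and 3 without EBC-1 nc replicate 3, EBC-1 shSYK replicate 3, PC-9 nc replicate 3 or PC-9 shSYK replicate 3. TGFBI had opposite called changes, a difference of -1.13 (SE 0.13, limma adjusted p = 2.37e-05). Between PC-9 and HCC827, it differed for 5 of 7, against 7.63% of all genes, among them TGFBI (1.15, SE 0.13, limma adjusted p = 3.72e-05) and SPP1 (2.14, SE 0.19, limma adjusted p = 6.37e-06). This count includes OLFML3, with at most 5 reads in any HCC827 library, and TNC, under the filter in PC-9. Both entered the fit through lines in which they were higher, and SPP1 was at 0.795 FPKM in HCC827 shSYK cells. The 3 pairs share their lines, so they are not separate evidence, and the members were chosen with earlier results of these data known. No member was called in the same direction in the 3 lines. FN1 was higher in the shSYK group without overlap in each line, and was called in HCC827 alone.

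Other matrix genes were read from a list of 60, of which most were too low to test. The list holds relatives of the members, such as further thrombospondins, fibulins, latent TGF-β binding proteins and CCN proteins. In EBC-1, 11 of 20 tested genes fell and 3 rose, where 21.6% of all genes tested fell and 23.1% rose, and the median of the list was -0.48, against 0.0090 over all genes. LTBP3, which anchors latent TGF-β in the matrix, went from 118 ± 10.9 to 23.7 ± 5.79 FPKM (SD, n = 3), a change of -2.30 (SE 0.17, limma adjusted p = 0.000149). TINAGL1, a matrix protein of basement membranes, went from 345 ± 40.9 to 111 ± 12.8 FPKM (-1.62, SE 0.12, limma adjusted p = 0.000119), and LTBP2 from 8.77 ± 1.30 to 3.44 ± 0.892 FPKM (-1.15, SE 0.16, limma adjusted p = 0.00161). The 3 that rose, MGP, NOV and FST, were below 4 FPKM and are named after their values were seen. MGP (0.198 FPKM in nc and 2.10 in shSYK cells) passed the filter only through the group in which it was high. The same holds for EFEMP2 among those that fell (2.06 FPKM in nc and 0.637 in shSYK cells), also named after its values were seen. In HCC827, 6 of 15 rose and 2 fell, where 17.2% of all genes tested rose and 20.7% fell, and the median was 0.046. EFEMP1, a fibulin, rose from 12.4 ± 1.09 to 28.7 ± 1.92 FPKM (1.15, SE 0.078, limma adjusted p = 0.00015), and the other named rises were CYR61 (0.51) and FSTL3 (0.50). CYR61 was called lower in EBC-1 (-0.87, limma adjusted p = 0.000116). The CCN gene CTGF, named after its values were seen, rose in HCC827 (1.34, limma adjusted p = 0.000573) and fell in EBC-1 (-1.05, limma adjusted p = 0.000115). The 2 that fell in HCC827 were LTBP3 (-0.65, limma adjusted p = 0.00123) and TINAGL1 (-0.32, limma adjusted p = 0.00607), which also fell in EBC-1. In PC-9, 1 of 19 was called, LTBP1 (-0.54, limma adjusted p = 0.0499), where 1.41% of all genes tested fell. It is named after its value was seen, and no gene of the list was called without the filter.

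Receptors and partners of the members were read from a list of 23, with integrins, syndecans, CD44, CD47, LRP1 and calreticulin. CD44, the hyaluronan receptor that also binds osteopontin, rose in the 3 lines, by 1.37 in EBC-1 (SE 0.11, limma adjusted p = 0.000182), by 0.59 in PC-9 (SE 0.10, limma adjusted p = 0.0364) and by 0.31 in HCC827 (SE 0.060, limma adjusted p = 0.00669). It was the 1 of 14 genes of the list called in PC-9, where 0.678% of all genes rose. That call was lost without the filter and without nc replicate 3 or any 1 of the 3 shSYK replicates. In EBC-1, 6 of 15 tested genes rose and 3 fell, where 23.1% of all genes rose and 21.6% fell. The named rises beside CD44 were ITGB6, an integrin subunit of epithelia (1.27), and CD47, a receptor of thrombospondin-1 (0.72). The 3 that fell were LRP1, which takes up thrombospondins (-1.60, SE 0.076, limma adjusted p = 3.51e-05), CALR, the gene of calreticulin (-1.11), and ITGB5 (-0.62). In HCC827, 4 of 14 rose and 4 fell, where 17.2% of all genes rose and 20.7% fell. Those that rose were ITGAV, a subunit of integrins that bind fibronectin and osteopontin (0.65, SE 0.062, limma adjusted p = 0.000445), CD47 (0.47), CD44 and ITGB1, and those that fell were LRP1, CALR (-0.53), SDC1 (-0.34) and ITGA5 (-0.22). ITGB1 and LRP1 in HCC827 are named after their values were seen. The medians of the list were 0.23 (EBC-1), 0.35 (PC-9) and -0.044 (HCC827).

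**Figure D5:**
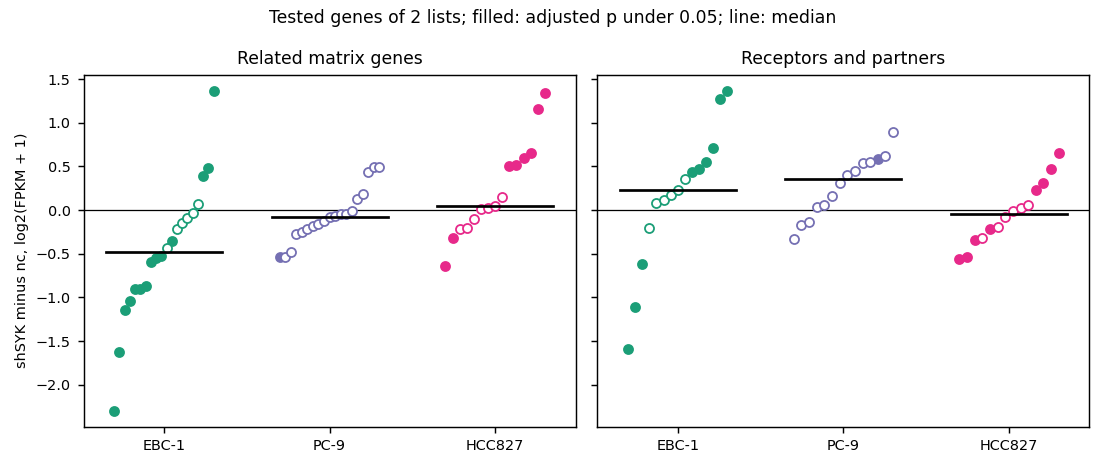
Change of the tested genes of the list of related matrix genes (left) and of the list of receptors and partners (right) in each line (y axis, shSYK minus nc on the log2(FPKM + 1) scale); filled points passed an adjusted p under 0.05 and lines are medians. The matrix genes of EBC-1 lie mostly below 0, with a median of -0.48, and the receptors of PC-9 mostly above, with a median of 0.35.

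Marker levels moved with the knockdown in some lines, and their part in the changes of the members was not tested. The summed FPKM of the 8 epithelial markers was 2059 to 2341 in EBC-1 nc and 1502 to 1602 in shSYK cells, and 4556 to 5034 against 3871 to 4544 in HCC827. In PC-9, the range was 3534 to 6026 for nc and 4146 to 4641 for shSYK cells. The summed FPKM of the 9 fibroblast markers was between 0.972 and 1.15 in HCC827 nc and between 1.38 and 2.19 in shSYK cells, with 2 of the 9 (PDGFRA and THY1) at 0 in every library. In EBC-1, the fibroblast sum was 2.61 to 2.89 in nc and 1.87 to 2.40 in shSYK cells. It was 5.49 to 8.37 and 6.16 to 7.61 in those of PC-9. Of the 5 endothelial markers, PECAM1 and CDH5 reached a mean of 1 FPKM in PC-9, where the sum was 15.1 to 17.0 in nc and 6.63 to 7.96 in shSYK cells. In EBC-1, the endothelial sum was 0.801 to 1.05 in nc and 0.103 to 0.188 in shSYK cells, with CDH5 and KDR at 0 in every library. Of 6 leukocyte markers, LCP1 in each line and CSF1R in HCC827 reached a mean of 1 FPKM. The leukocyte sum in nc cells was 47.7 to 50.7 FPKM in EBC-1, 114 to 132 in PC-9 and 82.8 to 89.1 in HCC827. Its range in shSYK cells was 43.1 to 49.1 FPKM in EBC-1, 121 to 131 in PC-9 and 87.3 to 98.3 in HCC827.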

How the data were processed

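RNA was extracted with TRIzol and sequenced on an Illumina HiSeq system from 18 libraries of 3 cell lines, and the authors aligned the reads to hg38. The submitters' processing notes name HISAT2 and CASAVA, and the builds hg19, hg38, GRCh37 and GRCh38. The counting program and the gene annotation are not given in the sources used here. The authors deposited 1 table of FPKM values per cell line, with the gene length. FPKM times gene length gave whole reads for 100% of the values (largest distance from a whole number 3.22e-05), and reads per gene were recovered. No replicate was a copy of another of its group (chi-square per degree of freedom 2.11 to 38.7). The highest values were between nc libraries of PC-9 (38.7 for replicates 1 and 2, 14.3 for replicates 1 and 3). A count of called genes depends on this spread as well as on the size of the changes. Each library was placed by its label, and 0 columns were left unmapped.

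Within a line, shSYK was compared with nc by limma 3.58.1 in R 4.3.3 with a variance trend on log2(FPKM + 1), over genes that averaged 1 FPKM or more. The fit was also run on simulated reads with 1 fixed spread for all genes, which cannot show how it behaves at the spread of these libraries. Genes with 3 reads or fewer in a library were taken as not detected there. Of the lists of related genes, those called and averaging 5 FPKM or more were named, up to 3 per direction and line. Alternatives left out each library in turn, blocked by replicate number, used limma-voom on recovered reads, set the filter at 5 FPKM or dropped it, dropped the variance trend, set the pseudocount at 0.1, scaled by equal library sums (TPM) or quantiles, fitted the 18 libraries together, or removed the trend on gene length (lowess, span 0.3). A voom fit of genes with at least 10 reads on average was added after seeing the data. The members, lists and tests were chosen with earlier results of these data known. Python 3.11.15 with numpy 2.4.6, pandas 2.3.3, scipy 1.17.1 and matplotlib 3.10.9 served for the rest. No protein sequences were used here.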

Additional observations from a re-analysis of the deposited data

Results flagged for a closer look

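The change under SYK knockdown differed between a pair of lines for 14 member and pair combinations, by a test of the difference itself (limma fit of all 18 libraries, adjusted p under 0.05 over 14636 genes). Each value below is the change in the first line minus the change in the second, on the log2 scale.

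Between EBC-1 and HCC827, SPP1 differed by 2.80, TNC by 1.57, THBS1 by -1.05 (limma adjusted p = 0.0041) and FSTL1 by -0.88 (limma adjusted p = 0.000121). These 4 kept their call in the alternatives run for them.

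Between PC-9 and HCC827, SPP1 differed by 2.14, OLFML3 by 2.08 (limma adjusted p = 5.24e-07), TGFBI by 1.15, TNC by 0.89 (limma adjusted p = 0.000198) and FSTL1 by -0.70 (limma adjusted p = 0.00203). OLFML3 was at 5 reads or fewer in every HCC827 library, so that its value is mostly the rise in PC-9, and TNC was under the filter in PC-9.

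Between EBC-1 and PC-9, OLFML3 differed by -2.00 (limma adjusted p = 3.48e-07), with 0 reads in every EBC-1 library, so that this value is the rise in PC-9. The OLFML3 difference was -2.52 and not called by limma-voom on recovered reads (adjusted p = 0.0801). TGFBI differed by -1.13, TNC by 0.68 (limma adjusted p = 0.00104), SPP1 by 0.66 (limma adjusted p = 0.0237) and FN1 by -0.38 (limma adjusted p = 0.0313). The TNC difference rests on the pseudocount, since it was 0.26 with a pseudocount of 0.1 (limma adjusted p = 0.408) and 0.22 by limma-voom on recovered reads (adjusted p = 0.628). The difference of FN1 was lost in 13 of 28 alternatives and that of SPP1 in 5 of 28, each time in the same direction.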

How the results depend on the processing

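Of 351 alternative values for single members and SYK within a line, 327 kept direction and side of the threshold, and of 588 for differences between lines, 559 did. The calls of members in EBC-1 numbered 4 in each leave-out, and in HCC827 4 to 5 (8 by limma-voom on genes with at least 10 reads). The cause of the changes below was not tested, except that fewer genes or samples enter some of them.

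PC-9 moved most. Its 253 genes became 47 without the filter, 491 with equal library sums, 505 with quantile normalization, 1511 in the fit of all 18 libraries, 485 by limma-voom and 521 by limma-voom with at least 10 reads, 169 with the filter at 5 FPKM, and between 7 (without shSYK replicate 1) and 621 (without nc replicate 1) with a library left out. Its 2 members became 1 without the filter and 1 to 3 with a library left out. Its 1 related matrix gene became 0 without the filter and with the filter at 5 FPKM, 2 with equal library sums, quantile normalization, limma-voom and the length trend removed, 3 by limma-voom with at least 10 reads, 6 in the fit of all 18 libraries, and 0 to 3 with a library left out. Its 1 receptor became 0 without the filter, 3 with equal library sums, quantile normalization, both forms of limma-voom and the length trend removed, 9 in the fit of all 18 libraries, and 0 to 4 with a library left out.

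In EBC-1, the filter at 5 FPKM left 3579 genes and 9 related matrix genes, and leave-outs gave 3761 to 6309 genes and 11 to 15 related matrix genes. In HCC827, that filter left 5 related matrix genes, and the fit of all 18 libraries called 5 receptors (leave-outs 6 to 10). Members whose change differed between EBC-1 and PC-9 numbered 3 with a pseudocount of 0.1, 2 by limma-voom, 3 by limma-voom with at least 10 reads, and 3 to 5 with a library left out. The change of FSTL1 in PC-9 turned to -0.023 with equal library sums, -0.012 by limma-voom and -0.011 by limma-voom with at least 10 reads (-0.086 to 0.059 with a library left out), that of FN1 in EBC-1 to -0.063 with the length trend removed, and the difference of TGFBI between EBC-1 and HCC827 to -0.039 with the length trend removed (-0.038 to 0.082 with a library left out). The call of SYK in PC-9 was lost without shSYK replicate 1 (limma adjusted p = 0.0648).

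With the replicate number as a replicate block, PC-9 kept 1 member, 0 related matrix genes and 0 receptors, TGFBI in PC-9 had an adjusted p of 0.0609 and THBS1 in HCC827 one of 0.0274 (limma). Libraries of the same number deviated together with r between -0.22 and 0.33, so the numbers were not taken to pair the libraries. Depth limits FBN1, THBS2 and SPARC, with at most 149 reads per library.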

Other observations

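The genes whose level ran closest to that of a member over the 18 libraries are given as a description, since libraries of a line share its level and the points fall into 3 lines. Pearson r was computed on log2(FPKM + 1) over 12671 genes, for members tested in at least 2 lines. TNC ran closest to COL17A1, the hemidesmosomal collagen (r = 0.991), LY6K (0.99) and CTNNA1, the gene of alpha-catenin (0.99). THBS1 ran closest to RGCC (0.99), SPIDR (0.988) and LINC00893 (0.985). SPP1 ran closest to CAMK2N1 (0.979), TSG101 (0.975) and DAG1, the gene of the laminin receptor dystroglycan (0.971). FN1 ran closest to MEST (0.992), GJC1 (0.991) and RPL23 (0.991), FSTL1 to HMGCS1 (0.99), RGS10 (0.988) and PPP1R14C (0.988), and TGFBI to UBAP1 (0.975), METTL1 (0.973) and PDCD11 (0.972).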
